A study of Mus musculus with 18 samples.

Results

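The 43 genes described here are interferon-stimulated genes of the mouse, taken by symbol, and all 43 were found among the 36757 genes of the deposited count table. By the interferon they are best known to answer, 30 of them (Isg15, the Ifit, Oas and Mx genes, Rsad2, Usp18, Irf7 and others) are called type I members and 13 (Irf1, Gbp2, Gbp3, Gbp6, Gbp7, Irgm1, Igtp, Iigp1, Cxcl9, Cxcl10, Psmb8, Psmb9 and Tap1) are called interferon-gamma type members. The division is one of habit, since 10 of the 43 (Cxcl10, Zbp1, Xaf1, Parp9, Parp14, Dtx3l, Irf9, Stat2, Trim30a and Gbp3) are strongly induced by either interferon.

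Type I and type III interferons act through receptors that carry the kinases JAK1 and TYK2, and the signal switches on antiviral genes that carry the interferon-stimulated response element (ISRE), with STAT2 and IRF9 among the factors that act there. Interferon-gamma, made mainly by T cells and natural killer cells, acts through JAK1 and JAK2 on genes that carry the gamma-activated site (GAS), and induces IRF1, immunity-related GTPases, chemokines that attract T cells, and the immunoproteasome. In the gut these genes restrict viruses and intracellular bacteria in epithelium and in immune cells, and RNF138 is a RING-type E3 ubiquitin ligase whose loss the study followed through colitis and colon cancer.

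RNA was sequenced from colon of the DSS colitis model, from colon of the colitis-associated cancer (CAC) model and from CAC tumour organoids, in 18 libraries, 3 labelled wild type (RNF138fl/fl in the study's methods) and 3 labelled RNF138-/- for each of the 3 materials. The mice were C57BL/6 and 6 to 8 weeks old at the start. All groups trace back to animals whose water held 2% dextran sulfate sodium (DSS) for 7 days, followed by 14 days of plain water in repeated cycles, with the animals killed 4 weeks after the last DSS, and the CAC animals had first received the carcinogen azoxymethane (AOM) at 10 mg/kg, 4 days before DSS. The organoids were grown in matrigel from single cells released by digestion of CAC tumour fragments. The sources used here describe no promoter or Cre for the deletion, and nothing says whether replicates are separate animals, so p-values measure the spread between these libraries. Total counts per library were between 11514716 and 24390082. Levels are CPM, the reads of a gene relative to the size of its library, scaled by the TMM method over the 18 libraries. A gene was called changed in edgeR where it differed at least 2-fold with an adjusted p below 0.05.

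For Rnf138 the libraries labelled RNF138-/- did not lie below the wild type libraries in any material, and the groups overlapped in DSS colon and in the organoids. In DSS colon Rnf138 had 15.6, 18 and 25.1 CPM in the wild type libraries and 19.4, 18 and 19.1 CPM in the libraries labelled RNF138-/-, and in CAC colon it had 27.6, 27.3 and 21.5 against 39.7, 45.3 and 45.8 CPM (log2 fold change 0.72, edgeR, adjusted p = 0.0426), so that the CAC groups do not overlap and the RNF138-/- libraries are the higher ones. In the organoids it had 37.7, 53.5 and 55.7 against 50.3, 47.8 and 42.8 CPM. A count per gene cannot show a missing exon, and genotypes are therefore given below as labelled. The markers set out to check the material showed summed levels of 4 Y-linked genes of 0 CPM in all 3 wild type organoid libraries and 242 to 281 CPM in the 3 organoid libraries labelled RNF138-/-, so the genotype and the Y-linked level cannot be told apart in the organoids. In the 12 tissue libraries the Y-linked sum was between 114 and 229 CPM. Of the 8 epithelial markers, which include Epcam and Krt8, the sum was 5740 to 11000 CPM in the organoids, and that of 6 fibroblast markers, such as Col1a1, was 9100 to 49700 CPM there against 924 to 1730 CPM in the tissues, so the organoid cultures were not purely epithelial by these markers.

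Promoters were read from RefSeq windows on GRCm38.p6 that run from 250 bases before to 50 bases after the start of a gene, and 33 of the 43 members matched one. An ISRE core, searched as GAAANNGAAA on both strands, was present in the window of 18 of these 33 members (54.5%) against 3.99% of 27025 genes. The share was the same in both classes, with 12 of 22 type I members and 6 of 11 interferon-gamma type members. A GAS, searched as TTCNNNGAA, which reads the same on both strands, was present in 8 of 33 members (24.2%) against 9.55% of all genes, in 4 of 22 type I members and in 4 of 11 interferon-gamma type members. Irf7 and Oasl1, called lower in CAC below, had 0 ISRE and 0 GAS matches in their windows. Gbp3 and Irf1 each have a further window without a match, which is not shown. The windows of 8 members, chosen from those with a match, are shown. They include members called in the comparisons below and let the classes be compared letter by letter. Each is the stretch of 140 bases that ends just before the start, read 5′ to 3′ on the strand of the gene, with every base of an ISRE or GAS match in capitals.
Isg15: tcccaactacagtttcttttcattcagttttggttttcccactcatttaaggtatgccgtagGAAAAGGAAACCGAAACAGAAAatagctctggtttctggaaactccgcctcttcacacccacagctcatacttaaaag
Oas1a: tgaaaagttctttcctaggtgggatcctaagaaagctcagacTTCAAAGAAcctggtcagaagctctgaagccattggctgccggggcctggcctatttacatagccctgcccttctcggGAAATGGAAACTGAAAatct
Bst2: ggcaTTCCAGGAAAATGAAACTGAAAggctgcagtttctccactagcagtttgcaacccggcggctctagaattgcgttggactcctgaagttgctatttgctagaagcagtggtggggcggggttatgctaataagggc
Ifit1: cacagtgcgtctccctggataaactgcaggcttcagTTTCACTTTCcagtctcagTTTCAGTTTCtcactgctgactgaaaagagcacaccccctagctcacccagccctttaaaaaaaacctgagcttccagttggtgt
Gbp3: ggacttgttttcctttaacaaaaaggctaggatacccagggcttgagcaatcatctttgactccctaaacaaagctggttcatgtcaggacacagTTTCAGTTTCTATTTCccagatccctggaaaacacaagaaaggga
Gbp7: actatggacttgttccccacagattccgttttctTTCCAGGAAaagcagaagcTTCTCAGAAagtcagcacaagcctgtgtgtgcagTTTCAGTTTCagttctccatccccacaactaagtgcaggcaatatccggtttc
Igtp: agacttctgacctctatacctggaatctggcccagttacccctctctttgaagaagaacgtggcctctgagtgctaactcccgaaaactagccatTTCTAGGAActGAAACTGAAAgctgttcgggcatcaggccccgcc
Irf1: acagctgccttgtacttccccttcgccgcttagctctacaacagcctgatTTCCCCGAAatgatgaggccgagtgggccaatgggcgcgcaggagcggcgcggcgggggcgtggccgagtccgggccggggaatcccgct

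The first 4 of these are type I members. The window of Isg15 (chr4:156200819-156200958, minus strand) holds 3 overlapping ISRE cores that begin 78, 72 and 66 bases before the start, that of Oas1a (chr5:120907526-120907665, minus strand) 2 overlapping cores at 20 and 14 bases and a GAS at 98 bases, and that of Bst2 (chr8:71537473-71537612, minus strand) 2 cores at 130 and 124 bases, the first of which overlaps a GAS at 136 bases. Ifit1 (chr19:34640749-34640888, plus strand) has 2 cores, at 104 and 85 bases. Of the interferon-gamma type members, Gbp3 (chr3:142559904-142560043, plus strand) has 2 overlapping cores at 45 and 39 bases and Gbp7 (chr3:142530196-142530335, plus strand) 1 core at 53 bases and 2 GAS matches at 106 and 87 bases. Igtp (chr11:58199416-58199555, plus strand) has 1 core at 34 bases with a GAS at 45 bases, and Irf1 (chr11:53769874-53770013, plus strand) has a GAS at 90 bases. A match is a run of letters and not a measured binding site.

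The mean level of each class separated tissue from organoids, though that of single members such as Bst2, Ifit1 and Cxcl10 did not, and within the tissues the lowest type I levels were those of CAC colon labelled RNF138-/-. As a level for each class, the mean of log2(CPM + 0.5) over its members was taken in each library. For the type I members it was 4.85 to 5.78 in DSS wild type, 5.87 to 6.36 in DSS labelled RNF138-/-, 5.11 to 7.23 in CAC wild type and 3.94 to 4.54 in CAC labelled RNF138-/-, where the last 2 groups do not overlap. In the organoids it was 2.77 to 3.62 in wild type and 3.27 to 3.56 in RNF138-/-. For the interferon-gamma type members the ranges were 4.58 to 5.23, 4.68 to 5.60, 4.01 to 5.20 and 3.98 to 5.17 in the same 4 tissue groups, all overlapping, and 1.98 to 2.54 and 2.54 to 2.78 in the organoids.

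**Figure D1:**
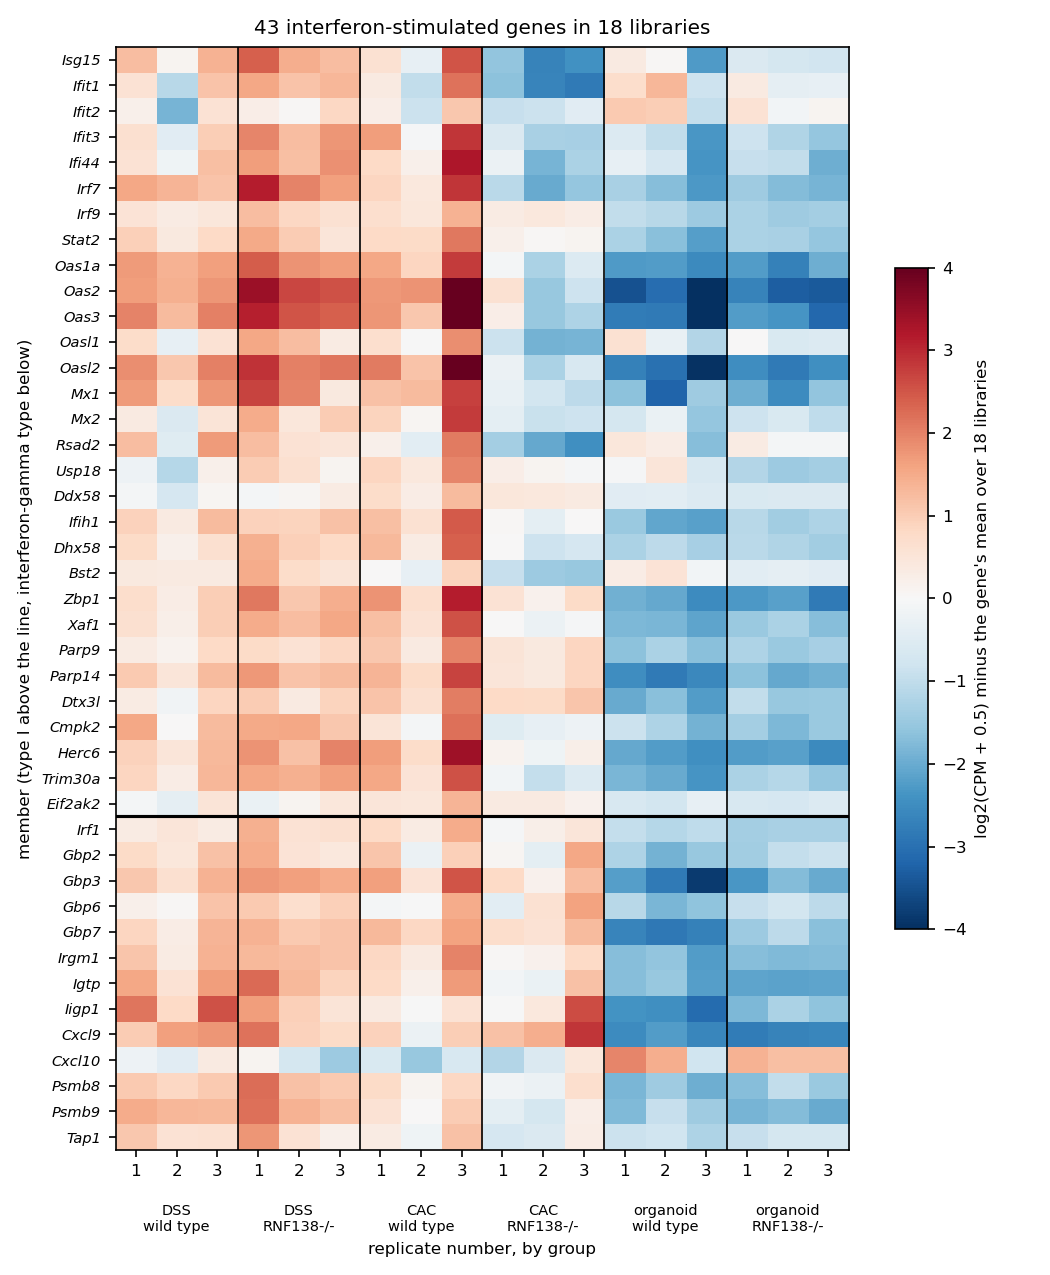
Level of each of the 43 members (rows, type I above the line and interferon-gamma type below) in each of the 18 libraries (columns), as log2(CPM + 0.5) minus the gene's mean over the 18 libraries, with colours ending at 4 and −4. In CAC wild type the third library is the highest for all 30 type I members, and in CAC labelled RNF138-/- the third library is the highest for all 13 interferon-gamma type members.

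The difference between the 2 class levels set the CAC groups apart as well. Type I minus interferon-gamma type was 1.41 ± 0.54 (SD, n = 3) in CAC wild type and −0.20 ± 0.79 in CAC labelled RNF138-/-, without overlap between them. In DSS it was 0.48 ± 0.19 in wild type and 0.99 ± 0.22 in RNF138-/-, again without overlap but in the opposite order, and in the organoids it was 0.97 ± 0.17 and 0.74 ± 0.25 with overlapping libraries. These are descriptions of a chosen list and carry no test.

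**Figure D2:**
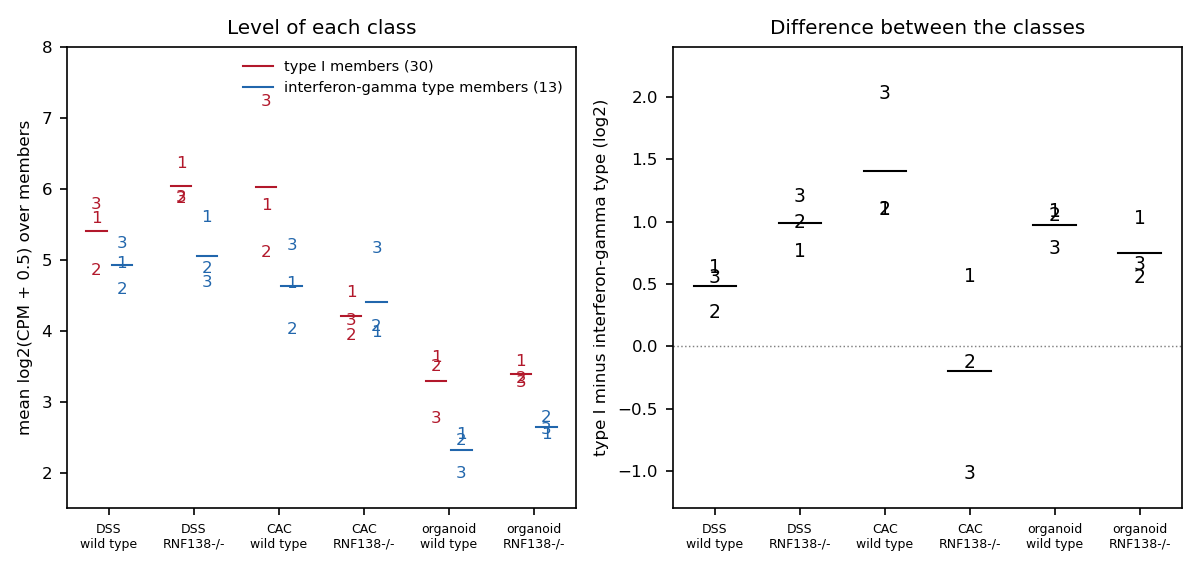
Mean log2(CPM + 0.5) of the type I and interferon-gamma type members in each library (left) and the difference between the classes (right), with digits giving the replicate number and lines the mean of 3 libraries. The type I level of CAC wild type spans 5.11 to 7.23, and the 3 CAC libraries labelled RNF138-/- are the lowest of the 12 tissue libraries.

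Single libraries stood apart within their groups. In CAC wild type, replicate 3 had the highest level of all 30 type I members and of 11 of the 13 interferon-gamma type members. In CAC labelled RNF138-/-, replicate 3 had the highest level of all 13 interferon-gamma type members and of only 7 of the 30 type I members. In DSS labelled RNF138-/-, replicate 1 was highest for all 13 interferon-gamma type members and for 20 type I members, and in wild type organoids replicate 3 was lowest for 27 of the 30 type I members.

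Per kilobase of annotated exon, the most abundant member was a type I gene in every group except CAC labelled RNF138-/-. In DSS wild type the order was Isg15 (84.3 ± 34.6 CPM per kb, n = 3), Irf7 (73.6 ± 10.1), Bst2 (68.5 ± 0.904) and Oas1a (58.3 ± 6.18), of which Isg15, Irf7 and Bst2 do not differ beyond their spread. In CAC wild type Isg15 (112 ± 113) and Irf7 (100 ± 95.5) led with a spread as large as their mean. In CAC labelled RNF138-/- the order was led by the interferon-gamma type gene Irf1 (25.6 ± 4.77 CPM per kb), followed by Bst2 (21.4 ± 5.12), and these values overlap. In wild type organoids Bst2 (63.8 ± 14.2) and Ifit1 (37.8 ± 23.5) led.

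In CAC colon the question was whether loss of RNF138 was accompanied by a change in the interferon response of tumour-bearing tissue. All 30 type I members had a lower fitted level in the libraries labelled RNF138-/-, 6 of them (Mx1, Irf7, Oasl1, Bst2, Isg15 and Oas1a) were called lower, and 0 were called higher. Over all 17752 genes tested, 4.83% were called lower and 0.546% higher. None of the 13 interferon-gamma type members was called in either direction in edgeR. The median log2 fold change was −2.25 over the type I members, −0.50 over the interferon-gamma type members and 0.0056 over all genes. At an unadjusted p under 0.05, 25 type I members were lower and 0 higher, and 2 interferon-gamma type members were lower and 1 higher, against 19.7% of all genes lower and 14.1% higher. For 24 of the 30 type I members and 0 of the 13 others, every library labelled RNF138-/- was below every wild type library, which held for 20.7% of all genes.

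**Figure D3:**
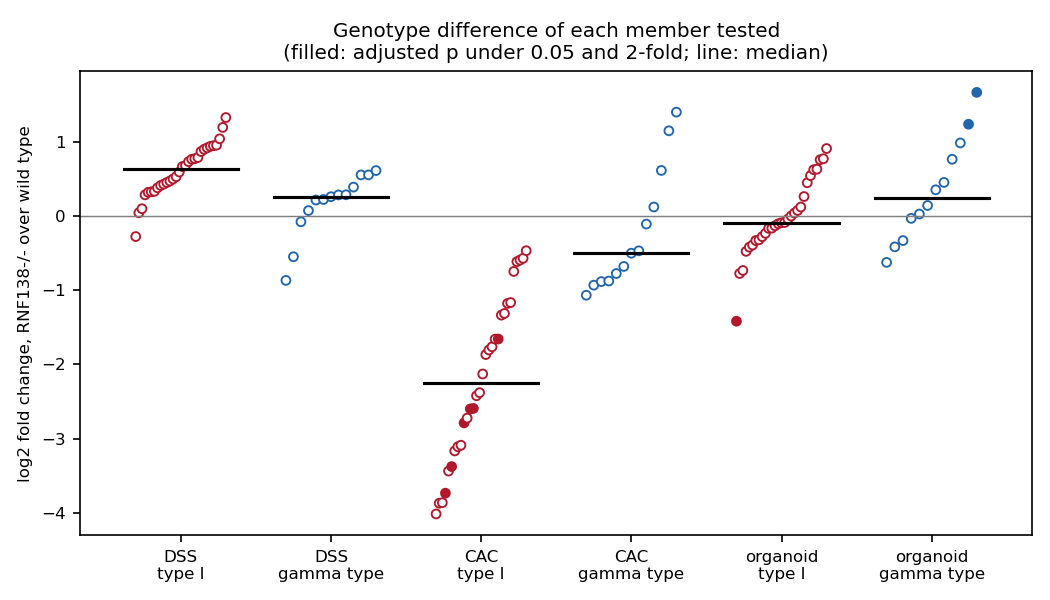
Log2 fold change of each member tested, libraries labelled RNF138-/- over wild type, in DSS colon, CAC colon and organoids, with the classes side by side, the median as a line, and members called at an adjusted p under 0.05 and 2-fold filled. In CAC the type I median lies at −2.25 and the interferon-gamma type median at −0.50.

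Among the antiviral effectors, Isg15, which encodes a ubiquitin-like modifier, had 47.4, 24.5 and 182 CPM in CAC wild type and 10.1, 4.45 and 5.43 CPM in the libraries labelled RNF138-/-. Every RNF138-/- value was below every wild type value, and the log2 fold change was −3.74 (SE 0.83, edgeR, adjusted p = 0.0495). Mx1, a dynamin-like GTPase whose allele in C57BL/6 mice is known to give a truncated protein without antiviral function, had 15, 15.9 and 44.9 against 5.05, 3.56 and 2.81 CPM (−2.79, SE 0.52, edgeR, adjusted p = 0.0381). Bst2 (tetherin), which holds budding virus at the cell surface, had 48, 38.2 and 89.7 against 24.7, 17 and 16.4 CPM (−1.66, SE 0.36, edgeR, adjusted p = 0.049). The groups do not overlap for any of the 3 genes, and the third wild type library is the highest each time.

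The oligoadenylate synthetases sense double-stranded RNA and activate RNase L. Oas3 (log2 fold change −4.02, SE 1.11), Oasl2 (−3.87, SE 0.89) and Oas2 (−3.86, SE 1.07) had the most negative values of the 43 members but wide errors, with adjusted p of 0.0699, 0.0518 and 0.0702 in edgeR. Oasl2 had 194, 102 and 911 CPM in wild type and 39.1, 18.5 and 28.8 CPM in RNF138-/-, and Oas2 had 39.5, 41.1 and 309 against 18.1, 3.77 and 6.25 CPM. The wild type libraries 1 and 2 were close to each other for Oas2, and library 3 was far above them. Oasl1, which restrains translation of Irf7, passed the thresholds (−2.59, SE 0.56, edgeR, adjusted p = 0.0481), as did Oas1a just below the threshold (−2.60, SE 0.58, adjusted p = 0.04999), of whose 50-base windows 57.6% also occur in the neighbouring Oas1g, so its reads may be shared.

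Ifit1 and Ifit3, which bind viral RNA and take part in antiviral signalling, had 81.5, 32.2 and 287 against 20.3, 9.84 and 8.56 CPM and 41.8, 12.4 and 96.5 against 8.45, 4.9 and 4.84 CPM (adjusted p = 0.0583 and 0.0542, edgeR). Neither pair of groups overlaps, and neither gene was called. For Ifit3, 51.2% of its windows also occur in Ifit3b. Rsad2 (viperin), which makes a chain-terminating nucleotide, had 24.3, 15.6 and 90.6 against 7.87, 4.7 and 3.44 CPM (log2 fold change −3.09, SE 0.74, adjusted p = 0.0554).

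Of the transcription factors, Irf7, which amplifies the production of type I interferon, had 195, 145 and 793 CPM in wild type and 50.7, 26.6 and 36.9 CPM in RNF138-/- (log2 fold change −3.38, SE 0.72, edgeR, adjusted p = 0.0478). Stat2 and Irf9, which act at the ISRE, had smaller differences. Stat2 had 77.7, 76.4 and 194 against 51.8, 46 and 48.5 CPM (−1.31, SE 0.39, adjusted p = 0.0793), without overlap. Irf9 had 78.2, 67.2 and 131 against 62.2, 65.4 and 60.3 CPM (−0.61, SE 0.26, adjusted p = 0.155). The sensors of viral nucleic acid Ddx58 (RIG-I, −0.47, SE 0.25, adjusted p = 0.236) and Zbp1 (−1.76, SE 0.60, adjusted p = 0.101) and the feedback inhibitor Usp18 (−1.18, SE 0.40, adjusted p = 0.102) were not called in edgeR.

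The interferon-gamma type members were divided in CAC. The chemokines Cxcl9 and Cxcl10, which attract T cells, and the GTPase Iigp1, which disrupts the vacuoles of intracellular parasites, had the most positive values of the 43. Cxcl9 had 6.09, 2.49 and 6.44 CPM in wild type and 7.28, 8.99 and 24.8 CPM in RNF138-/- (log2 fold change 1.40, SE 0.58, adjusted p = 0.144). It was the only member whose RNF138-/- libraries all lay above the wild type, which held for 24.5% of all genes. Iigp1 had 15.8, 12.2 and 18.5 against 12.2, 16.6 and 78.3 CPM, and its log2 fold change of 1.15 became −0.13 without replicate 3 labelled RNF138-/-. For Cxcl10, with 3.75, 1.79 and 3.69 against 2.39, 3.89 and 8.33 CPM, it went from 0.62 to 0.011 without that library, and for Cxcl9 from 1.40 to 0.68. The groups of Iigp1 and Cxcl10 overlap.

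The guanylate-binding proteins and immunity-related GTPases showed no called difference in CAC. Gbp2 had 52.7, 20.5 and 47.2 against 25.6, 18.4 and 72.1 CPM (log2 fold change −0.11, SE 0.58, or 0.19 with counts scaled by their total alone), and Gbp6 had 3.08, 3.24 and 10.1 against 2.34, 5.26 and 10.9 CPM (0.12, SE 0.69), with 70.7% of the windows of Gbp6 found elsewhere, mostly in Gm43302. Irgm1 (−0.93, SE 0.45, adjusted p = 0.195) and Igtp (−0.68, SE 0.53, adjusted p = 0.387) were lower in fit and overlapped in their libraries. Irf1, the transcription factor that carries the interferon-gamma response, had 151, 108 and 243 against 83.3, 101 and 121 CPM (−0.77, SE 0.32, adjusted p = 0.145). The antigen-processing genes Tap1 (−0.88), Psmb9 (−0.87) and Psmb8 (−0.50) had adjusted p of 0.186, 0.137 and 0.299 in edgeR.

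The calls in CAC depended on the model and on single libraries, while the sign did not for the 6 genes called. DESeq2 called 23 type I members lower, 0 higher and 0 interferon-gamma type members, against 9.97% of all genes lower and 2.67% higher in that fit. In 1 fit of all 18 libraries 23 were called lower and Cxcl9 higher, against 10.9% of all genes lower and 3.76% higher. Without wild type replicate 3, the library with the highest type I levels, 11 type I members were called, against 5.25% of all genes lower and 0.911% higher, and the median was −1.34. Among them Irf7 (log2 fold change −2.19, adjusted p = 0.0144), Mx1 (−2.05, 0.0166) and Isg15 (−2.46, 0.0273) were past the threshold in edgeR. Without wild type replicate 2, 12 were called, against 3.17% of all genes lower, and 0 were called without wild type replicate 1 or without replicate 1, 2 or 3 labelled RNF138-/-, where 20 to 25 type I members were lower at an unadjusted p under 0.05, against 13.7% to 18.2% of all genes in those fits. Of all genes, 1.52% were called lower without wild type replicate 1 and 0, 0 and 0.572% without replicates 1, 2 and 3 labelled RNF138-/-. With a block for the replicate number 2 were called, against 5.28% of all genes lower. With the Y-linked level as a covariate 0 of all 17752 genes were called in either direction, so that the 0 members called there hold no information on the members. At an unadjusted p under 0.05, 1 type I member was lower in that fit, against 9.19% of all genes.

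Other cell types moved with the CAC comparison. The summed level of 6 smooth muscle markers was 2510 to 8390 CPM in wild type and 113 to 242 CPM in RNF138-/-, with the highest value in wild type replicate 3. That of 6 B and plasma cell markers (without Sdc1 and Xbp1, of which Sdc1 was higher in RNF138-/-) was 1500 to 2270 against 125 to 215 CPM, that of 6 neutrophil markers 52.5 to 101 against 141 to 336 CPM, and that of 8 epithelial markers 8470 to 16700 against 6910 to 8410 CPM. All 6 smooth muscle markers and 4 of the 8 epithelial markers were lower, and 5 of the 6 neutrophil markers higher, without overlap between the groups. The 4 fat markers had 19.4 to 32.2 against 0.607 to 1.28 CPM, with Adipoq and Lep at 0 in all 3 RNF138-/- libraries. Sums of 12 T and NK cell markers (29.1 to 60.5 against 17.4 to 38.1), 10 macrophage markers (199 to 510 against 387 to 496) and 8 dendritic cell markers (33.7 to 154 against 47.6 to 89.9) overlapped. Single markers of these lists moved without overlap. In RNF138-/-, 4 of 8 dendritic cell markers were lower and 0 higher, and 3 of 12 T and NK cell markers were lower and 0 higher. Of the 10 macrophage markers 2 were higher and 1 lower. Without Ly6d the dendritic cell sums were 25.5 to 46.9 against 27.1 to 33.3 CPM. In bulk RNA, fewer cells of a type and less RNA per cell cannot be told apart, and the part of these cell types in the type I result was not tested.

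In DSS colon the same genotype comparison gave values on the other side of 0, and no member was called. Of the 43 members, 0 were called by edgeR in either direction, against 0.0902% of the 16623 genes tested, and DESeq2 called 1, Oas2, against 0.971% of all genes higher and 0.687% lower. The fitted log2 fold change was positive for 29 of the 30 type I members, all but Rsad2, and for 10 of the 13 interferon-gamma type members. The median was 0.63 over the type I members, 0.26 over the others and 0.021 over all genes. At an unadjusted p under 0.05, 13 type I members and 1 interferon-gamma type member were higher and 0 members lower, against 6.08% of all genes higher and 4.33% lower. For 10 type I members and 3 others every library labelled RNF138-/- was above every wild type library, which held for 8.87% of all genes.

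Oas2 had the largest value, with 37.6, 31.5 and 40.3 CPM in wild type and 130, 76 and 70.2 CPM in RNF138-/- (log2 fold change 1.33, SE 0.26, edgeR, adjusted p = 0.165). All 3 RNF138-/- libraries lay above the wild type. Its adjusted p was 0.0394 without replicate 3 labelled RNF138-/-. Ifit3 followed, with 20.4, 9.16 and 25.9 against 51.4, 31.2 and 44.7 CPM (1.20, SE 0.37, adjusted p = 0.314), and then Irf7, with 315, 280 and 239 against 955, 434 and 338 CPM (1.04, SE 0.37, adjusted p = 0.383). Neither pair of groups overlaps, and for Irf7 replicate 1 labelled RNF138-/- is more than 2-fold above the others, so that the value was 0.48 without it.

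The groups of Isg15, Ifit1 and Mx1 overlapped in DSS. Isg15 had 74.7, 33.8 and 82.6 against 166, 86.1 and 73.9 CPM (0.77, SE 0.40, adjusted p = 0.572), and Ifit1 had 96.1, 29.5 and 142 against 188, 141 and 160 CPM (0.87, SE 0.47, adjusted p = 0.589). Zbp1 had 44.7, 33.2 and 54.4 against 119, 57.8 and 74.5 CPM without overlap (0.92, SE 0.30, adjusted p = 0.338). For Mx1, with 21.7, 10.9 and 22.5 against 43.9, 26.3 and 8.41 CPM, the value of 0.50 became −0.086 without replicate 1 labelled RNF138-/-. Usp18 (0.94), Bst2 (0.59), Oasl2 (0.68), Irf9 (0.47), Stat2 (0.33) and Ddx58 (0.33) were not called. Besides Oas2, Ifit3, Irf7 and Zbp1, the RNF138-/- libraries lay above all wild type libraries for Bst2, Irf9, Oas3, Dhx58, Xaf1 and Trim30a, and among the interferon-gamma type members for Irf1, Gbp3 and Psmb8.

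The interferon-gamma type members of DSS colon were spread around 0. Iigp1 had 55.8, 21.9 and 73.4 against 40.7, 24.5 and 18 CPM (log2 fold change −0.87, SE 0.45, adjusted p = 0.568) and Cxcl10 had 5.2, 4.21 and 7.93 against 6.52, 3.54 and 1.86 CPM (−0.55, SE 0.46), which together with the type I gene Rsad2 (−0.28, SE 0.49) were the most negative. Cxcl9 (−0.076), Gbp2 (0.075), Irgm1 (0.22), Tap1 (0.22), Igtp (0.26), Psmb9 (0.29), Gbp6 (0.39), Irf1 (0.56) and Psmb8 (0.61) had standard errors of 0.25 to 0.43. Without replicate 1 labelled RNF138-/-, which had the highest level of all 13, the median of this class was −0.073, and that of the type I members was 0.40. The sum of 12 T and NK cell markers was 32.2 to 33.9 CPM in DSS wild type and 69.6 to 96.8 CPM in RNF138-/-, with 0 markers at 0. For 10 of these 12 markers every RNF138-/- library lay above the wild type, and their part in the values was not tested. Of the dendritic cell markers 2 of 8 did so, of the neutrophil markers 2 of 6 and of the fat markers 1 of 4 (Cidec). Without Ly6d the dendritic cell sums overlapped, at 24.2 to 29.1 CPM in wild type and 27.5 to 33.1 CPM in RNF138-/-. Without Cidec the sums of Adipoq, Plin1 and Lep were 1.06, 0.0562 and 0.991 CPM in wild type and 0.0598, 1.26 and 22.2 CPM in RNF138-/-, so that replicate 3 labelled RNF138-/- alone stood apart.

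The genotype differences of the 2 tissues were compared directly in 1 fit of the 18 libraries, as the difference in CAC minus that in DSS. By this test 23 of the 30 type I members (76.7%) and 1 of the 13 interferon-gamma type members (7.69%) were called lower and 0 members higher, against 9.37% of all 19390 genes lower and 2.57% higher. All 30 type I values were negative, with a median of −2.69 against −0.88 for the other class and −0.0043 for all genes. The values of the named type I genes were −5.13 (SE 0.98) for Oas2, −4.49 (SE 0.85) for Oasl2, −4.44 (SE 0.97) for Isg15, −4.36 (SE 0.75) for Irf7 and −4.24 (SE 0.99 and 0.84) for Ifit1 and Ifit3, with adjusted p between 0.00253 for Irf7 and 0.0119 for Ifit1 in edgeR. Mx1 (−3.23), Zbp1 (−2.62), Bst2 (−2.20), Usp18 (−2.06), Stat2 (−1.59) and Irf9 (−1.03) were also called, and Rsad2 (−2.75, adjusted p = 0.0558) and Ddx58 (−0.74, adjusted p = 0.113) were not. The 18 alternatives run for this contrast did not include the Y-linked covariate. Isg15, Irf7, Ifit1, Ifit3, Oasl2, Zbp1 and Bst2 were called under each of the 18, whereas the call was lost under 9 of them for Stat2, 8 for Irf9, 6 for Usp18 and 4 for Mx1. For all 4 of these, leaving out DSS RNF138-/- replicate 1 or CAC wild type replicate 3 was enough, with adjusted p in edgeR of 0.0984 and 0.11 for Stat2, 0.0839 and 0.0821 for Irf9, 0.063 and 0.0758 for Usp18 and 0.0614 and 0.0626 for Mx1.

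Of the interferon-gamma type members Irf1 was the 1 called (−1.27, SE 0.36, adjusted p = 0.03). Irf1 was not called with counts scaled by their total alone (−0.96) or with only the groups compared in the fit (edgeR, adjusted p = 0.0845). Leaving out DSS wild type replicate 1 (adjusted p = 0.0556) or 3 (0.0512), DSS RNF138-/- replicate 1 (0.0807), CAC wild type replicate 3 (0.0843) or CAC RNF138-/- replicate 1 (0.0698) or 2 (0.0641) also ended its call. Iigp1 (2.07, SE 0.80, adjusted p = 0.0916), Cxcl9 (1.53, SE 0.71, adjusted p = 0.16) and Cxcl10 (1.22, SE 0.86, adjusted p = 0.367) had values above 0. Leaving out 1 library at a time gave between 16 members called, without CAC wild type replicate 3 (type I median −1.87, 5.83% of all genes lower), and 30, without CAC wild type replicate 2 (11.3% of all genes lower and 3.78% higher). The smooth muscle markers, which move with this contrast, summed to 6510 to 7780 CPM in DSS wild type, 5000 to 14500 in DSS RNF138-/-, 2510 to 8390 in CAC wild type and 113 to 242 in CAC RNF138-/-, and the B and plasma cell markers without Sdc1 and Xbp1 to 1770 to 2670, 1540 to 2680, 1500 to 2270 and 125 to 215 CPM in the same order, and their part in it was not tested. The contrast uses the same CAC and DSS libraries as the comparisons above and is the test of their difference, not a further replicate of them.

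**Figure D4:**
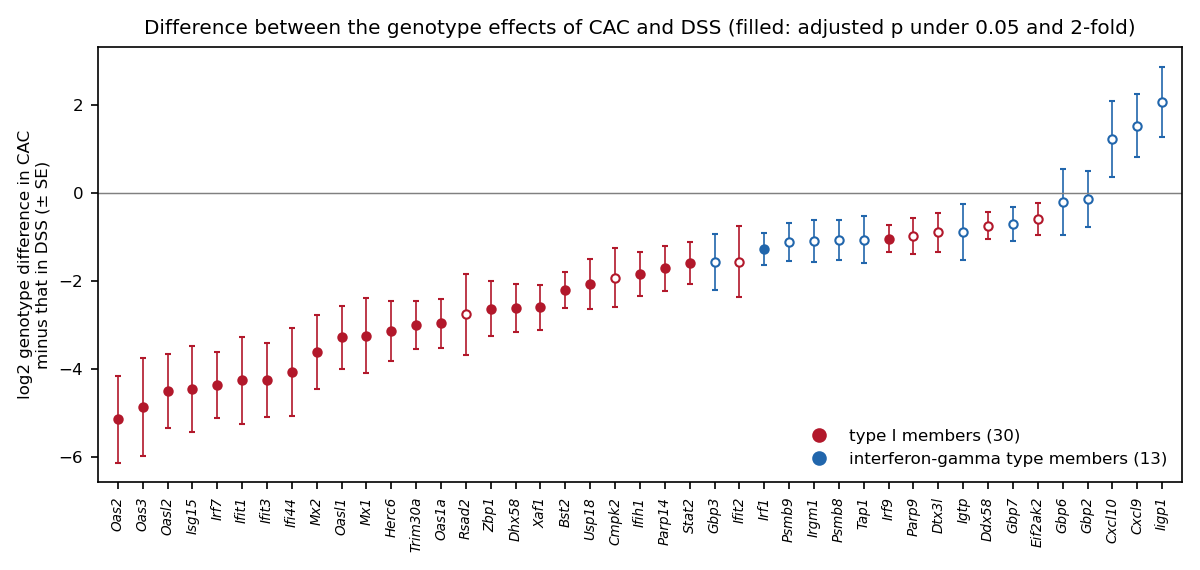
Genotype difference in CAC minus that in DSS (log2) for each of the 43 members, in order, with the SE of the fit as bars and members called filled. All type I members lie below 0, from Oas2 at −5.13 to Eif2ak2 at −0.58, and Iigp1, Cxcl9 and Cxcl10 are the members above 0.

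In the organoids the genotype difference of the type I members was near 0 and 3 members were called. Of 41 members tested, Usp18 was called lower and Gbp7 and Iigp1 higher, against 7.04% of the 15294 genes lower and 7.94% higher, and Oas2 and Cxcl9 were not tested because their counts were low. The medians were −0.089 over 29 type I members, 0.25 over 12 interferon-gamma type members and −0.036 over all genes. Usp18, which removes ISG15 from proteins and damps signalling at the type I receptor, had 16.5, 24.4 and 10.8 CPM in wild type and 7.44, 6.03 and 6.42 CPM in RNF138-/- (log2 fold change −1.42, SE 0.29, edgeR, adjusted p = 0.00913). Gbp7, a GTPase of defence against intracellular bacteria, had 1.21, 0.958 and 1.15 against 3.37, 4.66 and 2.84 CPM (1.67, SE 0.31, adjusted p = 0.006), and Iigp1 had 1.96, 1.84 and 1.01 against 3.16, 4.76 and 3.73 CPM (1.24, SE 0.33, adjusted p = 0.0226). The groups do not overlap in any of the 3, though how common this was over all genes is not given for the organoids. Of the windows of Gbp7, 12.7% occur elsewhere, mostly in Gm43802.

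At an adjusted p alone, 5 members were higher and 3 lower, against 17.9% and 17.7% of all genes. Below 2-fold these were Parp14 (0.76), Trim30a (0.77) and Ifih1 (0.63) among the higher and Bst2 (−0.73, adjusted p = 0.0133) and Irf1 (−0.33, adjusted p = 0.0427) among the lower. Bst2 had 58.5, 70 and 44.4 CPM in wild type and 35.1, 36.9 and 34.9 CPM in RNF138-/-, without overlap. Ifit1 had 105, 160 and 35.8 against 81.8, 49.1 and 50.8 CPM (−0.77, SE 0.47, adjusted p = 0.221), and Isg15 had 40.2, 32.2 and 6.07 against 21, 18.8 and 18.3 CPM (−0.47, SE 0.53, adjusted p = 0.509). For both genes wild type replicate 3 lies below all RNF138-/- values and the other wild type libraries lie above them. Without wild type replicate 3, Ifit1 was called lower (−1.17, edgeR, adjusted p = 0.0197) and Isg15 had −0.94 (adjusted p = 0.0066).

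Other members of the organoids were not called. Irf7 (0.0013), Rsad2 (0.076), Irgm1 (0.029), Cxcl10 (−0.030), Ifit3 (−0.086) and Mx1 (−0.16) changed sign under at least 1 alternative, and Tap1 (0.14) did so when counts were scaled by their total alone. Gbp3 had 2.08, 1.2 and 0.337 against 1.9, 3.07 and 2.46 CPM (0.99, SE 0.53, adjusted p = 0.176). Iigp1 was not past the thresholds without wild type replicate 3 (log2 fold change 0.99), without replicate 2 (adjusted p = 0.0936) or 3 (0.0653) labelled RNF138-/-, or in 1 fit of all libraries, and 5 members were called without wild type replicate 1, against 11.2% of all genes higher and 8.8% lower. The fibroblast markers summed to 9100 to 23200 CPM in wild type and 40400 to 49700 CPM in RNF138-/- organoids, and the macrophage markers to 47.7 to 65.4 against 74.2 to 99.6 CPM. The epithelial markers summed to 10000 to 11000 against 5740 to 8430 CPM and the smooth muscle markers to 265 to 1360 against 1580 to 1780 CPM, and the part of these cell types in these values was not tested.

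Set against CAC, the genotype difference of the organoids was higher for 17 type I members and 2 interferon-gamma type members (Gbp3 and Gbp7) and lower for 0, against 11.4% of all genes called higher and 7.54% lower. Among the named genes the difference was 4.51 (SE 1.28) for Oas2, 4.39 (SE 0.88) for Oasl2, 3.35 (SE 0.75) for Irf7, 3.23 (SE 0.96) for Isg15, 3.14 (SE 0.93) for Rsad2, 3.0 (SE 0.85) for Ifit3 and 1.55 (SE 0.48) for Stat2. Adjusted p for these was between 0.00273 and 0.0301 in edgeR. Gbp7 was called under every alternative run. Gbp3 was not called with counts scaled by their total alone (1.52, adjusted p = 0.0747), with only the groups compared in the fit (0.0786), or without CAC wild type replicate 1 or 3, CAC RNF138-/- replicate 1 or 2, wild type organoid replicate 2 or 3 or any 1 organoid library labelled RNF138-/- (adjusted p between 0.0549 and 0.131). Of the named genes, Isg15, Rsad2, Ifit3 and Stat2 were not called without CAC wild type replicate 3, nor were Isg15, Rsad2 and Stat2 without CAC RNF138-/- replicate 2 or 3. Stat2 was lost under 8 of 18 alternatives in all and Oas2 without organoid RNF138-/- replicate 1. Without CAC wild type replicate 3 the calls fell from 19 to 11, against 9.42% of all genes higher, and without replicate 2 labelled RNF138-/- of CAC to 12, against 9.41%. In wild type and then RNF138-/-, smooth muscle markers summed to 2510 to 8390 and 113 to 242 CPM in CAC. In the organoids they summed to 265 to 1360 and 1580 to 1780 CPM. Fibroblast markers summed to 1060 to 1710 and 924 to 1730 CPM in CAC and to 9100 to 23200 and 40400 to 49700 CPM in the organoids. The part of these cell types was not tested. Against DSS, the difference of the organoids was called for 1 member, Usp18 (−2.32, SE 0.57, adjusted p = 0.0256), against 5.71% of all genes. Usp18 was not called when DSS wild type replicate 1, DSS RNF138-/- replicate 1, wild type organoid replicate 2 or organoid RNF138-/- replicate 2 or 3 was left out.

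**Figure D5:**
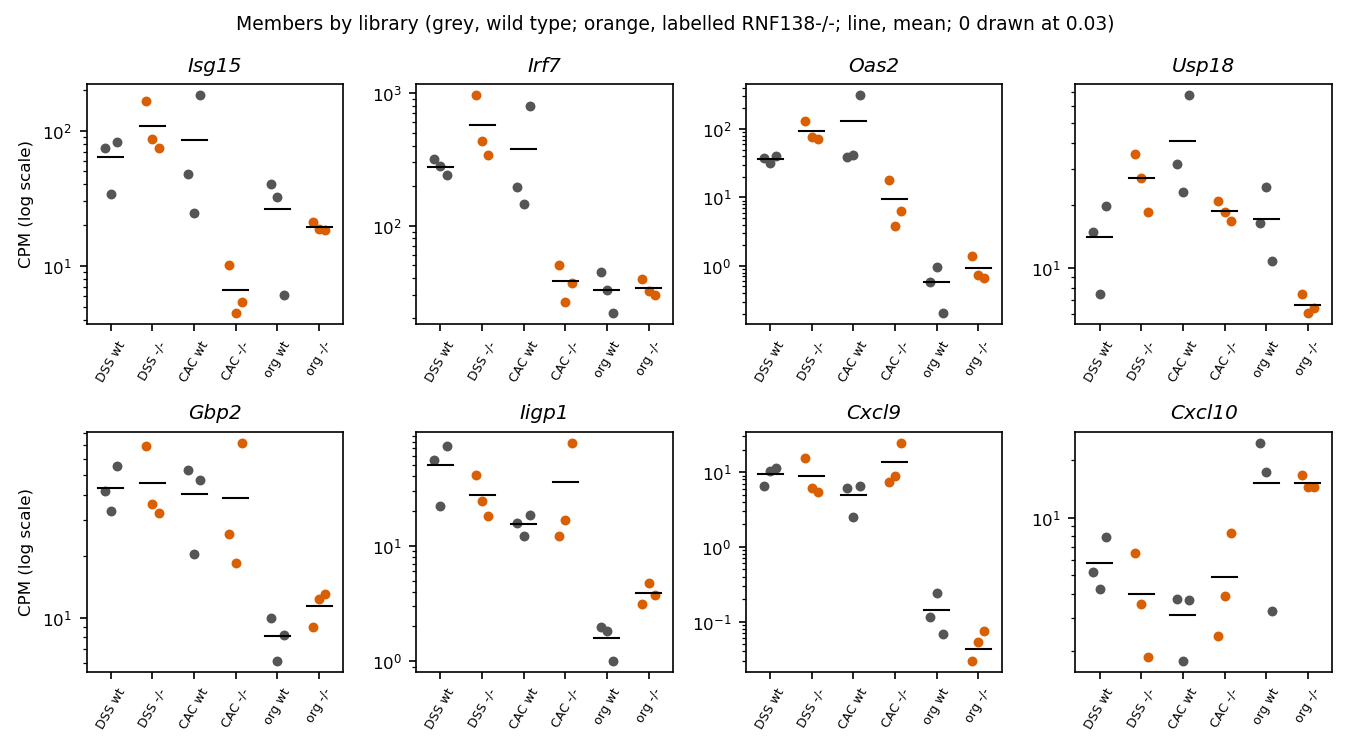
CPM (log axis) of 8 members in each of the 18 libraries by group, with lines at the mean of 3 and a value of 0 drawn at 0.03. For Isg15, Irf7 and Oas2 the CAC libraries labelled RNF138-/- lie below all other tissue libraries, while for Gbp2, Iigp1, Cxcl9 and Cxcl10 they overlap with other groups.

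The tissues were also compared within a genotype, CAC against DSS. Among wild type libraries, 5 type I members (Usp18, Zbp1, Herc6, Ddx58 and Dtx3l) were called higher in CAC than in DSS and Iigp1 lower, against 9.78% of all genes higher and 3.81% lower. Usp18 had a log2 difference of 1.53 (SE 0.40, edgeR, adjusted p = 0.0143), Zbp1 1.53 (SE 0.45, 0.0246), Ddx58 1.03 (SE 0.22, 0.00343), Herc6 1.44 (SE 0.48, 0.0426), Dtx3l 1.00 (SE 0.32, 0.0363) and Iigp1 −1.71 (SE 0.57, 0.0468). None of these 6 was called without CAC wild type replicate 3, where the type I median fell from 0.86 to 0.085 and Psmb9 (−1.08) was called lower. Without DSS wild type replicate 1 the 1 member called was Ddx58 (1.06), without replicate 2 it was Iigp1 (−2.11), and 15 were called without CAC wild type replicate 2, against 8.29% of all genes higher and 3.66% lower. Iigp1 was not called with the replicate block (−1.63, edgeR, adjusted p = 0.0548), nor without DSS wild type replicate 1 or 3 or any 1 CAC wild type library (adjusted p between 0.0597 and 0.132).

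Between the wild type groups, DSS and then CAC, the neutrophil markers summed to 2.46 to 2.81 and 52.5 to 101 CPM, with all 6 markers higher in CAC without overlap, and the fat markers to 1.8 to 3.91 and 19.4 to 32.2 CPM, with 3 of 4 higher. Their part in the differences was not tested.

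Among libraries labelled RNF138-/-, 21 type I and 4 interferon-gamma type members (Psmb8, Psmb9, Tap1 and Igtp) were called lower in CAC than in DSS and 0 higher, against 19.6% of all genes lower and 17.5% higher. The median was −1.87 for type I members and −0.70 for the others. Isg15 had −4.03 (SE 0.74), Irf7 −3.92 (SE 0.57), Ifit1 −3.67 (SE 0.75), Oas2 −3.30 (SE 0.72) and Bst2 −2.28 (SE 0.30), with adjusted p between 2.53e-05 and 0.0012 in edgeR. Of the 4 interferon-gamma type members, 1 (Psmb9) was called without DSS RNF138-/- replicate 1, the library with the highest levels of this class, against 17.7% of all genes lower, and 2 (Psmb8 and Psmb9) with counts scaled by their total alone, against 15.1%. Usp18 (−0.53), Ddx58 (0.30), Gbp2 (−0.24), Gbp6 (−0.086), Iigp1 (0.37), Cxcl9 (0.61) and Cxcl10 (0.30) were not called. Between these groups, DSS and then CAC labelled RNF138-/-, the smooth muscle markers summed to 5000 to 14500 and 113 to 242 CPM, the B and plasma cell markers without Sdc1 and Xbp1 to 1540 to 2680 and 125 to 215 CPM, the T and NK cell markers to 69.6 to 96.8 and 17.4 to 38.1 CPM and the neutrophil markers to 4.25 to 7.07 and 141 to 336 CPM. The fat markers summed to 9.99 to 47.7 and 0.607 to 1.28 CPM in the same order. The epithelial markers summed to 9310 to 12800 and 6910 to 8410 CPM, with 4 of 8 lower and 2 higher in CAC without overlap. The part of these cell types in the differences was not tested. These 2 comparisons, the genotype comparisons and their difference share libraries, and the labels name no batch by which the tissues could be divided.

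Most members were called lower in organoids than in CAC tissue. Among wild type libraries 25 type I and 12 interferon-gamma type members were called lower and Cxcl10 higher, against 26.8% of all genes lower and 17.5% higher. Among libraries labelled RNF138-/- 17 type I and 11 interferon-gamma type members were called lower and Cxcl10, Ifit1 and Rsad2 higher, against 26.5% lower and 17.9% higher. The type I medians were −3.04 in wild type and −1.22 in RNF138-/-, those of the interferon-gamma type members −2.63 and −2.01, and those of all genes −0.14 and −0.22. Cxcl10 had 1.79 to 3.75 CPM in CAC wild type and 3.24 to 24.6 CPM in wild type organoids (log2 difference 2.31, SE 0.63, adjusted p = 0.00487), and 2.39 to 8.33 against 14.5 to 16.6 CPM in RNF138-/- (1.64, SE 0.60, adjusted p = 0.0274). In wild type Cxcl10 was called under every alternative run. In RNF138-/- it was not called with counts scaled by their total alone (1.01, edgeR, adjusted p = 0.123), or without CAC RNF138-/- replicate 1 (1.31, 0.104) or 2 (1.49, 0.0866) or organoid RNF138-/- replicate 1 (1.58, 0.0599).

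Cxcl9, which shares a receptor with Cxcl10, had 0 to 3 reads in each organoid library and 2.49 to 24.8 CPM in CAC colon. Bst2 (−0.022 in wild type and 0.88 in RNF138-/-), Ifit1 (−0.41 and 2.24) and Ifit2 (0.24 and 0.96) were among the type I members not called lower in either genotype, whereas Oas2 (−7.82 and −3.31), Oasl2 (−6.39 and −2.0) and Zbp1 (−4.46 and −3.05) were. In RNF138-/- the rise of Rsad2 was 2.04 (SE 0.67, adjusted p = 0.0153) and that of Ifit1 2.24 (SE 0.71, adjusted p = 0.0123). Without CAC RNF138-/- replicate 3 Rsad2 was not called (1.80, adjusted p = 0.0602), without replicate 1 of that group 5 type I members were called higher, against 17.1% of all genes, and 4 were with DESeq2 (15.1%), with no filter on low counts (10.2%) or with only those groups fitted (19.8%). The CAC tissue holds immune, stromal and epithelial cells, and markers of T and NK cells summed to 1.89 to 11.4 CPM in the organoids with 0 reads for Cd3e, Cd2 and Prf1, against 17.4 to 60.5 CPM in CAC colon. In CAC colon and then in the organoids, the neutrophil markers summed to 52.5 to 336 and 1.04 to 4.35 CPM, the endothelial markers to 111 to 185 and 3.35 to 8.29 CPM, the macrophage markers to 199 to 510 and 47.7 to 99.6 CPM, and the B and plasma cell markers without Sdc1 and Xbp1 to 125 to 2270 and 0.299 to 1.67 CPM. The part of these cell types in the differences was not tested.

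The interferons themselves were at or near 0 reads. Ifng had 0 to 12 reads per library (at most 0.718 CPM, in DSS RNF138-/- replicate 1), and Ifnb1, Ifnl2 and Ifnl3 had 0 reads in all 12 tissue libraries. In the organoids the type III interferon Ifnl2 had 0, 6 and 0 reads in wild type (0 to 0.479 CPM) and 10, 16 and 11 reads in RNF138-/- (0.702 to 0.847 CPM), without overlap. Ifnl3, a near-identical copy with which reads may be shared, had 5, 8 and 0 against 8, 8 and 10 reads, and Ifnb1 had 1, 0 and 0 against 8, 1 and 1 reads. None of the interferon genes passed the filter on low counts in a genotype comparison, so no test by genotype was made of them. A count of 0 allows up to 3 reads.

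Receptors and kinases, sensing genes, inhibitors and genes of class I antigen presentation were fixed as lists of other pathway genes. Of these, 40 were tested in each tissue and 38 in the organoids. In DSS and in CAC 0 of the 40 were called or past an adjusted p of 0.05 in edgeR, with 1 higher at an unadjusted p under 0.05 in DSS, against 6.08% of all genes, and 4 higher and 15 lower in CAC, against 14.1% and 19.7%. Of 10 genes of class I antigen presentation, 7 were lower in CAC at an unadjusted p under 0.05, beside the same 19.7% of all genes, and 0 at an adjusted p under 0.05, with a median of −0.72.

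In the organoids 12 of the 38 were higher and 6 lower at an adjusted p under 0.05, and 0 were past 2-fold. Among the receptors and kinases, Ifnar1 (0.54), Ifnar2 (0.77), Ifngr1 (0.42), Jak1 (0.79), Jak2 (0.65) and Tyk2 (0.49) were higher, and Ifnlr1, the receptor of type III interferon in epithelium, was lower, with 23.5, 20.5 and 18 CPM against 15.5, 12.9 and 16.6 CPM (log2 fold change −0.50, SE 0.16, adjusted p = 0.0403). Of the sensing genes Ikbke, Mavs, Ticam1 and Zc3hav1 were higher and Tbk1 and Tmem173 lower, of the inhibitors Samhd1 and Socs3 were higher and Ptpn6 lower, and of the class I genes H2-D1 and Psme1 were lower. These shares lie beside 17.9% of all genes higher and 17.7% lower at the same adjusted p.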

How the data were processed

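RNA-seq reads were aligned to mm10 and counted per gene by the authors, with STAR 2.6.1d, HTSeq 0.11.2 and DESeq2 named in the submitters' processing notes. The deposited table holds raw counts per gene for the 18 libraries, and the strand setting of the counting is not given in the sources used here. A second deposited table with the authors' log2 fold changes and p-values was not used.

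Genotypes were compared within each material with edgeR 4.0.16 (R 4.3.3, limma 3.58.1) on the counts, using filterByExpr, TMM scaling and the quasi-likelihood test. P-values were adjusted over all genes tested (Benjamini-Hochberg), and a gene was called where it differed at least 2-fold with an adjusted p below 0.05. Contrasts across materials and the differences between genotype effects came from 1 fit of all 18 libraries. DESeq2 1.42.0, other scalings, no filter, a replicate block, a Y-linked covariate and leaving out each library were tried as alternatives. The Y-linked covariate was used only in the genotype comparisons of DSS and of CAC. With 3 libraries against 3, an exact permutation test of a single gene cannot go below p = 0.1, so none was used. The fits were also run on simulated counts with known changes, whose outcome is not given here. These counts had the same spread for all genes and no outlying library. They therefore cannot say how far calls that depend on single libraries hold.

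The members and lists were chosen with earlier results of these data known. Genes are named by a rule of a fixed set of members (Isg15, Irf7, Cxcl9 and others), the members called in each comparison, and the 3 most positive and 3 most negative members of each genotype comparison, while the other genes named were chosen after their values were seen. Same-numbered libraries of DSS had correlations of 0.251, 0.108 and 0.521 in their deviations across genes, but only wild type replicate 3 correlated best with its own number. Whether the numbers pair the libraries is therefore not known, and the block fit called 0 members in DSS too. Ifna1, Ifna2, Ifna4 and Trex1 were not analysed here. Promoter windows are those of RefSeq on GRCm38.p6, and intervals of counting error are not given because libraries serve as the replicates. Marker sums that leave out Sdc1 and Xbp1, Ly6d or Cidec were chosen after the values were seen.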

Additional observations from a re-analysis of the deposited data

Results flagged for a closer look

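The genotype difference was itself different between materials, by the test of the difference in 1 edgeR fit of the 18 libraries, for the following results. Between CAC and DSS 24 members were called, and the differences (log2, CAC minus DSS) were −5.13 for Oas2, −4.49 for Oasl2, −4.44 for Isg15, −4.36 for Irf7, −4.24 for Ifit1 and −4.24 for Ifit3. They were −3.23 for Mx1, −2.62 for Zbp1, −2.20 for Bst2, −2.06 for Usp18, −1.59 for Stat2, −1.27 for Irf1 and −1.03 for Irf9. Of 18 alternatives, none of them with the Y-linked covariate, the call was lost under 9 for Stat2, 8 for Irf1, 8 for Irf9, 6 for Usp18 and 4 for Mx1. Between organoids and CAC 19 members were called, with differences (organoids minus CAC) of 4.51 for Oas2, 4.39 for Oasl2, 3.35 for Irf7, 3.23 for Isg15, 3.14 for Rsad2, 3.0 for Ifit3 and 1.55 for Stat2. Here the call was lost under 8 of the 18 for Stat2, 3 for Isg15, 3 for Rsad2 and 1 for Ifit3, and under 1 of 17 for Oas2. Between organoids and DSS 1 member was called, Usp18, with −2.32.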

How the results depend on the processing

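Members called by genotype in DSS went from 0 to 1 with no filter on low counts, with DESeq2 and with the Y-linked covariate, against 0.644%, 0.971% and 0.541% of all genes higher. In CAC the 6 called became 3 with RLE scaling (4.61% of all genes lower), 19 with no filter (4.36%), 23 with DESeq2 (9.97%), 24 in 1 fit of all libraries (10.9%), and 0 with the Y-linked covariate, where 0 of all genes were called (type I median −1.48), and in the organoids the 3 called became 8 without a fold threshold. With a replicate block 2 were called in CAC (5.28% of all genes lower), 0 in DSS and 3 in the organoids. The same-number correlations were 0.033, 0.227 and 0.0773 in CAC, where every wild type library correlated best with its own number. In the organoids they were −0.219, −0.0927 and 0.0759, and no wild type library did so. Whether the numbers pair the libraries is not known for any material. CAC against DSS in wild type went from 6 to 10 with no filter (5.82% of all genes higher and 2.43% lower) and to 1 with only those groups fitted (6.75% and 3.09%). Organoids against DSS by genotype went from 1 to 2 with total counts (1.94% of all genes higher and 3.5% lower), no filter (2.22% and 1.19%) or the block (3.63% and 2.03%), and to 3 with DESeq2 (5.14% and 3.95%) or only those groups fitted (4.54% and 3.54%). Total-count scaling gave medians of all genes of 0.27 by genotype in CAC and −0.24 in the organoids, 0.11 and 0.35 for CAC against DSS and −0.30 and −0.84 for organoids against CAC in wild type and RNF138-/-, and class medians of −1.84 (type I) and −2.65 (interferon-gamma type) for organoids against CAC in RNF138-/- and of 0.0625 (interferon-gamma type) for the genotype difference of organoids minus CAC. Without the 10 members listed as induced by either interferon, the type I median of CAC against DSS in RNF138-/- was −2.60.

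Leaving out each library in turn gave 0 to 1 called by genotype in DSS, 0 to 12 in CAC, 2 to 5 in the organoids, 1 to 15 for CAC against DSS in wild type, 11 to 26 for organoids minus CAC and 0 to 2 for organoids minus DSS. Of all genes, the same fits in the same order called 0 to 0.461%, 0 to 0.911%, 5.48% to 11.2%, 6.42% to 10.7%, 8.82% to 12% and 1.47% to 5.25% higher, and 0 to 0.408%, 0 to 5.25%, 4.14% to 8.8%, 2.18% to 5.04%, 5.1% to 7.8% and 0.709% to 2.87% lower. Type I medians ranged from −2.62 to −1.34 by genotype in CAC, 0.085 to 1.16 for CAC against DSS in wild type, −3.40 to −2.29 for organoids against CAC in wild type, −3.13 to −1.87 for CAC minus DSS and 1.38 to 2.69 for organoids minus CAC. Interferon-gamma type medians ranged from −2.31 to −1.44 for organoids against CAC in RNF138-/-, −1.35 to −0.44 for CAC minus DSS, 0.059 to 1.21 for organoids minus CAC and −0.22 to 0.51 for organoids minus DSS.

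Some named members changed sign. In DSS, Gbp2 had −0.0008 with the Y-linked covariate, and leaving out a library gave ranges of −0.086 to 0.92 (Mx1), −0.70 to 0.18 (Rsad2), −0.34 to 0.29 (Gbp2), −0.046 to 0.45 (Irgm1), −0.24 to 0.52 (Igtp), −0.70 to 0.18 (Cxcl9), −0.073 to 0.47 (Psmb9) and −0.37 to 0.51 (Tap1). In CAC, Gbp2 had 0.19 with total counts, and the ranges were −0.90 to 0.25 (Gbp2), −0.55 to 0.93 (Gbp6) and −0.13 to 1.56 (Iigp1). In the organoids, total counts gave −0.18 (Irf7), −0.098 (Rsad2), −0.17 (Irgm1) and −0.057 (Tap1), the block gave 0.048 (Ifit3), 0.048 (Mx1) and 0.28 (Cxcl10), and Cxcl10 had 0.0069 with DESeq2 and 0.010 in 1 fit of all libraries. The ranges there were −0.47 to 0.37 (Ifit3), −0.23 to 0.29 (Irf7), −0.62 to 0.24 (Mx1), −0.35 to 0.44 (Rsad2), −0.15 to 0.17 (Irgm1) and −0.51 to 0.54 (Cxcl10). The cause was not tested. DESeq2 gave no adjusted p for Oas2 in the fit of all libraries. By genotype, the filter on low counts removed the interferon genes and, in the organoids, Oas2 and Cxcl9, which were then not tested.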
